A study of Mus musculus with 6 samples.

Results

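The interferon response and MHC class I genes are a list of 49 symbols that covers interferon receptors, the STAT and IRF factors behind them, interferon-stimulated antiviral genes and the machinery of class I antigen presentation. The symbols were chosen by function, with earlier results of these data known, so the shares of members called are descriptions only. They were mapped through the GENCODE M21 annotation to the Ensembl identifiers of the deposited tables. There, 45 of the 49 were present among 14548 genes. *Ifnar2*, *Irf9*, *H2-D1* and *Tapbp* were not analysed here. RNA-seq was done on C2C12, an immortal mouse myoblast line that can form muscle fibres in culture, with 3 WT libraries and 3 libraries of cells that lack myostatin (MSTN-KO). The knockout was made with a Cas9 nickase and an sgRNA against exon 3 of *Mstn*, and only the line C11 was sequenced, so the loss of MSTN and other differences of that line cannot be told apart. In the labels the strain field reads C11 for WT as well, and libraries were grouped by their titles. Values are FPKM, a read density scaled for gene length and library size.

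Cells carry receptors for type I interferons (*Ifnar1*, *Ifnar2*) and for interferon gamma (*Ifngr1*, *Ifngr2*). Bound receptors activate JAK kinases and STAT factors, which enter the nucleus with or without IRF9 and switch on interferon-stimulated genes through promoter elements called ISRE and GAS. The products of these genes block viral entry, translation or RNA stability, and others build the class I pathway, in which peptides cut by the proteasome are pumped into the endoplasmic reticulum by the TAP transporter and loaded on MHC class I heavy chains with beta-2 microglobulin.

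*Mstn* lay between 0 and 0.0586 FPKM in all 6 libraries, so its RNA gives no check of the genotype. The summed FPKM ran from 723705 to 999579, and each MSTN-KO library had a higher sum than each WT library. Absolute depth is unknown, while the steps of genes under 0.1 FPKM put the depth of the other libraries between 0.857 and 1.11 times that of WT replicate 1. The myoblast markers *Myod1*, *Des*, *Myf5* and *Msc* were above 7 FPKM in every library, and *Myod1* and *Des* were lower in MSTN-KO. Of 11 leukocyte markers, 4 were in the tables, with a summed level of 1.19 to 1.56 FPKM in WT and 0.818 to 2.45 FPKM in MSTN-KO, nearly all of it *Cd68* in WT. *Fcer1g* was listed at 0 in 5 libraries, and *Csf1r* stayed under 0.1 FPKM. The 4 endothelial markers were each under 0.1 FPKM.

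For the test, log2(FPKM + 1) was compared with limma over the 10837 genes that reached 1 FPKM in some library, and a gene was called at a Benjamini-Hochberg adjusted p under 0.05 over all of them. Fold changes on this scale (log2FC, MSTN-KO minus WT) understate those of low genes. Of the 45 members, 28 passed the filter. In MSTN-KO, 6 of the 28 were upregulated (21.4%, against 8.78% of all genes tested), namely *Tap2*, *Tap1*, *Ifitm2*, *Irf2*, *H2-K1* and *B2m*. Outside the 4 class I members, only *Ifitm2* and *Irf2* were upregulated, so the share of the whole list rests mostly on class I genes. *Xaf1* alone was downregulated (3.57%, against 8.96% of all genes tested). In bulk RNA, a change in the number of cells that express a gene and a change in RNA per cell cannot be told apart. The median log2FC of the 28 members was 0.20, and that of all genes tested was -0.00078. *Tap1* and *Dtx3l* passed the filter only through their MSTN-KO libraries, which favours a difference in that direction. Without the filter all 45 members entered the fit over 14548 genes, with 4 upregulated (8.89%, against 4.95% of all genes) and 1 downregulated (2.22%, against 6.23%). *Irf2* and *H2-K1* were the calls lost there.

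**Figure D1:**
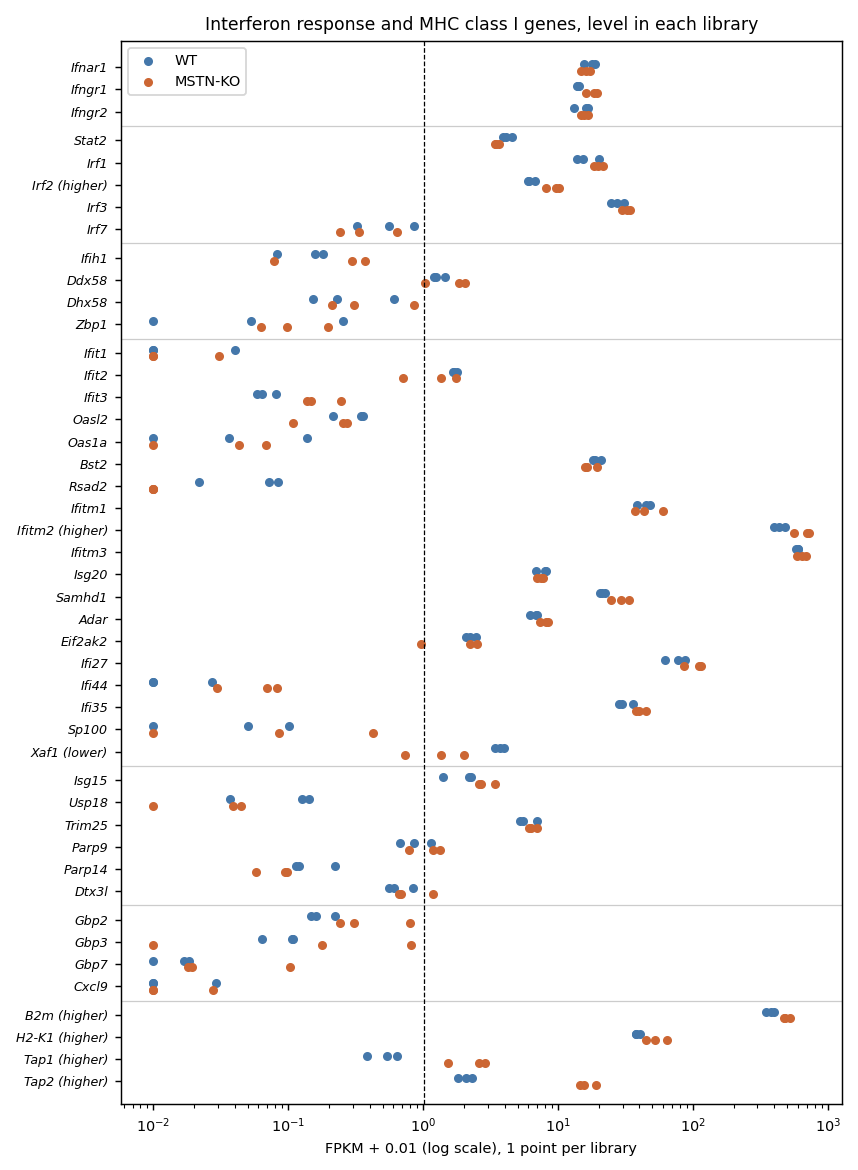
FPKM + 0.01 on a log axis for the 45 members, grouped by role and separated by grey lines, with 1 point per library (blue WT, orange MSTN-KO) and a dashed line at 1 FPKM. *Ifitm2*, *Ifitm3* and *B2m* lie at 346 FPKM or more, 17 members stay left of the line in every library, and among the 28 tested *Tap2* shows the widest gap between the groups.

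By the criteria of the study (unadjusted p under 0.05 and log2FC past 1 in either direction), *Tap1* and *Tap2* were upregulated DEGs (1.21% of all genes tested were) and *Xaf1* was a downregulated DEG (2.30% of all genes tested were). All MSTN-KO libraries lay above all WT libraries for 11 of the 28 members (39.3%, against 19.3% of all genes tested), and below them for *Stat2* and *Xaf1* (7.14%, against 18.1%). By role, all 4 class I genes tested were called higher, as was 1 of 4 STAT and IRF factors (25%). Of 12 antiviral effectors, 1 was called higher and 1 lower (8.33% each). Called were 0 of 3 receptors, 0 of 1 sensor and 0 of 4 genes of the ISG15 and ADP-ribosylation group. Over all genes tested, 8.78% were called higher and 8.96% lower. In the groups with no call by limma, *Ifngr1* and *Isg15* had an unadjusted p under 0.05.

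**Figure D2:**
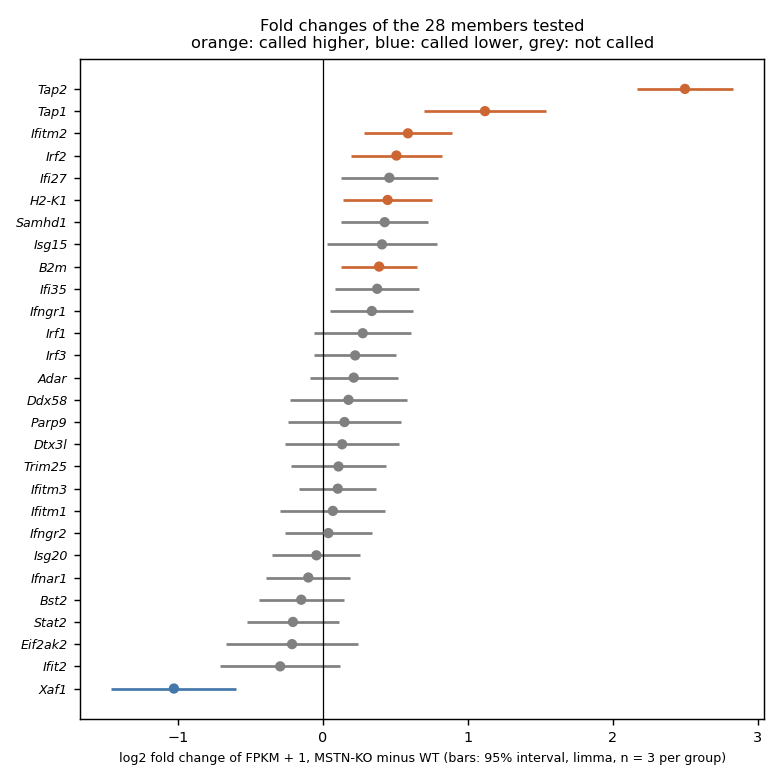
log2FC of FPKM + 1 (MSTN-KO minus WT) of the 28 members tested, with 95% intervals from limma (3 libraries per group), where orange points were called higher, blue lower and grey not called. *Tap2* stands at 2.50 and *Tap1* at 1.12, *Xaf1* at -1.03, and the intervals of most other members cross 0.

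The promoters of *Tap1*, *B2m*, *Irf2* and *Ifit1* are shown to set 3 upregulated members beside a classical interferon-stimulated gene that stayed near 0. Sequences are RefSeq promoters of GRCm38.p6, 300 bases around the start site, which is position 0, and 38 of the 45 members had an entry. Capitals mark matches to the ISRE core (GAAA, any 2 bases, then GAAA, on either strand, overlaps allowed) and, in *Irf2* only, to the GAS motif (TTC, any 3 bases, then GAA, which reads the same on both strands).
*Tap1* (chr17:34187306-34187605, + strand, no match to either motif): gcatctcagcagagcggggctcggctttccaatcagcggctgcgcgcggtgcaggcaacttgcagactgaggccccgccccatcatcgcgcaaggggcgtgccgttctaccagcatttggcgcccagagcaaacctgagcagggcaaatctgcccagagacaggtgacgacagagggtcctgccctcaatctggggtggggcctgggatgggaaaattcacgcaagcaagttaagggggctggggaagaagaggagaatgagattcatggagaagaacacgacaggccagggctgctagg
*B2m* (chr2:122147437-122147736, + strand, ISRE core): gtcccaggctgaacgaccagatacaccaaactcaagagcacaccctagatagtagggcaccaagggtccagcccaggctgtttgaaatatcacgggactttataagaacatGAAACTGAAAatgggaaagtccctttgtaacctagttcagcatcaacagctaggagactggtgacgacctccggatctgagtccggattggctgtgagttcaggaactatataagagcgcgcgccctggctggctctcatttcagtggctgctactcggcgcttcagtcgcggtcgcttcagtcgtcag
*Irf2* (chr8:46739495-46739794, + strand, ISRE core then GAS): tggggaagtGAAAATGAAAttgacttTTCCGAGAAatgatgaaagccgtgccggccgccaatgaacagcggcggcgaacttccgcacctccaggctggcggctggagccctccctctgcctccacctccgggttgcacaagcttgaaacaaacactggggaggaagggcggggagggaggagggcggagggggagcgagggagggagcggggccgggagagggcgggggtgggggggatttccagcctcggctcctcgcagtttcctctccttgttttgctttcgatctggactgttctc
*Ifit1* (chr19:34640639-34640938, + strand, 2 matches to the ISRE core): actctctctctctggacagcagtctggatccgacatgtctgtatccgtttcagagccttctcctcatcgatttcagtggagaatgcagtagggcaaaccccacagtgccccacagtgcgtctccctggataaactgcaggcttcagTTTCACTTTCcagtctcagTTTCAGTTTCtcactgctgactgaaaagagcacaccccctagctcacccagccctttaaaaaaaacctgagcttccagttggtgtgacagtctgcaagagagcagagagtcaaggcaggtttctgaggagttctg

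The ISRE core was at positions -139 to -130 in *B2m*, at -241 to -232 in *Irf2* and at -104 to -95 and -85 to -76 in *Ifit1*. Over all 32851 promoters, 3.44% held the ISRE core and 8.3% the GAS motif, and of the 47 promoters of the members 36.2% held the first and 27.7% the second. Counted by gene, 17 of the 38 members held the ISRE core (44.7%) and 13 the GAS motif (34.2%). Of the 13 members with a promoter that stayed under 1 FPKM, 8 held the ISRE core (61.5%), as did 9 of the 25 members that passed the filter (36%). Of the 6 called members with a promoter, 3 held it (*B2m*, *Irf2* and *Ifitm2*), while *Tap1*, *H2-K1* and *Xaf1* held neither motif. *Tap2*, the called member with the largest log2FC, had no promoter entry. A match is a description of letters, and the binding of factors was not measured.

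Of the 4 class I members, *Tap2* and *Tap1* had the largest log2FC. They encode the subunits of the TAP transporter. *Tap2* (ENSMUSG00000024339, chromosome 17, 34203527 to 34216321 in GRCm38) was at 2.05, 2.298 and 1.81 FPKM across WT replicates 1 to 3, against 18.96, 14.5 and 15.6 FPKM in MSTN-KO. Every MSTN-KO library was far above every WT library. The means were 2.05 ± 0.243 and 16.3 ± 2.35 FPKM (SD, n = 3), a ratio of 7.95 (log2FC 2.50 with an SE of 0.15, adjusted p = 2.82e-07 by limma). *Tap1* (ENSMUSG00000037321, chromosome 17, 34187553 to 34197225) was at 0.526, 0.632 and 0.374 FPKM in WT and 2.88, 1.52 and 2.59 FPKM in MSTN-KO. Its groups did not overlap, and in WT it was under 1 FPKM in each library. The ratio of means was 4.56 (log2FC 1.12 with an SE of 0.19, adjusted p = 0.00185 by limma), and without the filter the adjusted p was 0.00906. Both calls held under each of the 16 alternatives tried, at 2.33 to 2.93 for *Tap2* and 0.997 to 1.97 for *Tap1*. The annotated span of *Tap2* is overlapped on the opposite strand by *Gm20496* (1923 bases) and *Gm15821* (3148 bases). The strand used in counting is not stated.

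*B2m*, the light chain of class I molecules, was at 346, 378 and 399 FPKM in WT and 468, 523 and 479.6 FPKM in MSTN-KO. The groups did not overlap, and the ratio of means was 1.31 (log2FC 0.39 with an SE of 0.12, adjusted p = 0.0442 by limma). *H2-K1*, a classical class I heavy chain, was at 37.6, 37.5 and 40.7 FPKM in WT and 44.5, 63.8 and 52.4 FPKM in MSTN-KO, a ratio of 1.39 (log2FC 0.45 with an SE of 0.14, adjusted p = 0.0455 by limma). MSTN-KO replicate 1 lay nearest to the WT libraries for *H2-K1* and replicate 2 farthest. The call of *B2m* was lost when any of the 6 libraries was left out (adjusted p 0.0555 to 0.155), and that of *H2-K1* when any but MSTN-KO replicate 1 was (0.0651 to 0.149). Scaling each library to a sum of 1000000 moved the median log2FC of all genes to -0.26, and *B2m* and *H2-K1* were then at 0.10 and 0.17, above that median but not called. Over all 16 alternatives *B2m* was called in 5 and *H2-K1* in 4, and neither was called with quantile normalization (adjusted p = 0.207 and 0.0814), scaling by the percentile 75 (0.0582 and 0.0819) or eBayes without trend (0.0669 and 0.0677), nor was *H2-K1* after the length and GC correction (0.343, adjusted p = 0.122). Class I heavy chains are near-identical in long stretches, so the split of reads among them is uncertain, and *B2m* overlaps the annotated span of *Patl2* on the opposite strand by 5398 bases.

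As shares of the summed FPKM, the 4 class I members together held 0.0512%, 0.0578% and 0.0577% in the WT libraries and 0.0603%, 0.0704% and 0.0550% in the MSTN-KO libraries. These shares overlapped between the groups. The summed levels themselves did not, at 387 to 442 FPKM in WT and 534 to 602 FPKM in MSTN-KO, and *B2m* made up most of each.

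**Figure D3:**
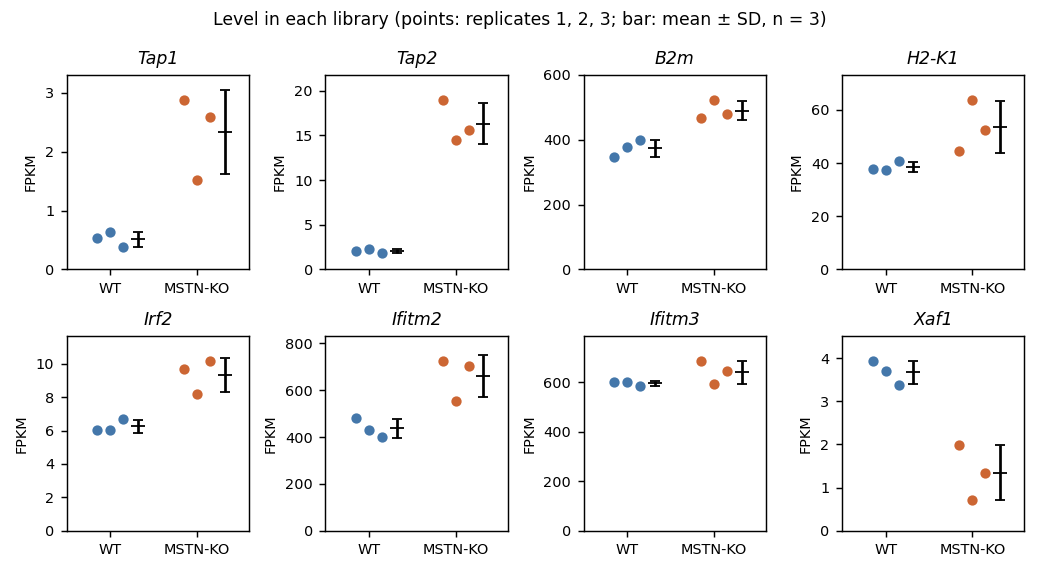
FPKM in each library (points, replicates 1 to 3 from left to right) with mean ± SD (n = 3) for the 7 called members and for *Ifitm3*, a paralog of *Ifitm2*, on axes that start at 0. *Tap2* goes from a mean of 2.05 to 16.3 FPKM and *Xaf1* from 3.67 to 1.35 FPKM, while the means of *B2m*, *H2-K1*, *Irf2* and *Ifitm2* differ by 1.31 to 1.51 times and *Ifitm3* overlaps between the groups.

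The other genes of class I presentation were taken from a list chosen by function, also with earlier results of these data known. Of its 23 genes, 19 were in the tables and 17 were tested. Of these, 5 were upregulated in MSTN-KO (29.4%, against 8.78% of all genes tested) and 0 downregulated by limma (against 8.96%), where *Cd1d1* and *Mr1* were lower with an unadjusted p under 0.05. *Psmb9*, a subunit of the immunoproteasome, was at 0.105, 0.263 and 0.154 FPKM in WT and 1.87, 0.919 and 1.46 FPKM in MSTN-KO (log2FC 1.02, adjusted p = 0.00298 by limma). Its ratio of means of 8.13 was above those of *Tap2* and *Tap1*, and with a pseudocount of 0.1 its log2FC was 2.46 and that of *Tap1* 1.97. Like *Tap1*, *Psmb9* passed the filter only through MSTN-KO. *H2-Q1* (0.88), *H2-T23* (0.75), *Psmb10* (0.71) and *H2-T22* (0.50) were the other log2FC values called, with limma adjusted p of 0.00288 to 0.0245. Over the 16 alternatives *H2-T22* was called in 12 and *H2-T23* in 13. Both calls were lost after scaling to 1000000 and without MSTN-KO replicate 3. *Psmb9*, *Psmb10* and *H2-Q1* were called wherever they were fitted. *Psmb10* is a further immunoproteasome subunit and the H2 genes are heavy chains, of which *H2-Q4* (0.08) and *H2-M3* (0.05) were not called. The split of reads among heavy chains is uncertain here as well, and the alternatives, which start from the same FPKM values, do not bear on it. *Psmb8*, the immunoproteasome subunit whose gene lies between *Tap1* and *Tap2*, was at 0.728, 0.2799 and 0.618 FPKM in WT and 0.856, 0.885 and 1.09 FPKM in MSTN-KO, with no overlap but no call (log2FC 0.34, adjusted p = 0.202 by limma). The loading chaperones *Calr*, *Canx* and *Pdia3* and the proteasome activators *Psme1* and *Psme2* were abundant (55.7 to 461 FPKM) and were not called.

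*Tap1* and *Psmb9* lie head to head, with start sites 0.2 kb apart and annotated spans that overlap by 212 bases on opposite strands, so without a stated strand in the counting their reads cannot be told apart there. Within 200 kb of the *Tap1* start, a window chosen after these values were seen, 15 genes were in the tables and 11 were tested. In MSTN-KO, 6 of the 11 were upregulated, namely *H2-K1*, *Ring1* (0.55), *Brd2* (0.40), *Psmb9*, *Tap1* and *Tap2*, and 0 were downregulated. *H2-Ke6*, also in this window, had a log2FC of -0.0023. Chromosome 17 as a whole had 527 genes tested, 16.9% of them called higher (8.78% over all chromosomes), with a median log2FC of 0.15. The part of this shift in the values of the class I genes was not tested.

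**Figure D4:**
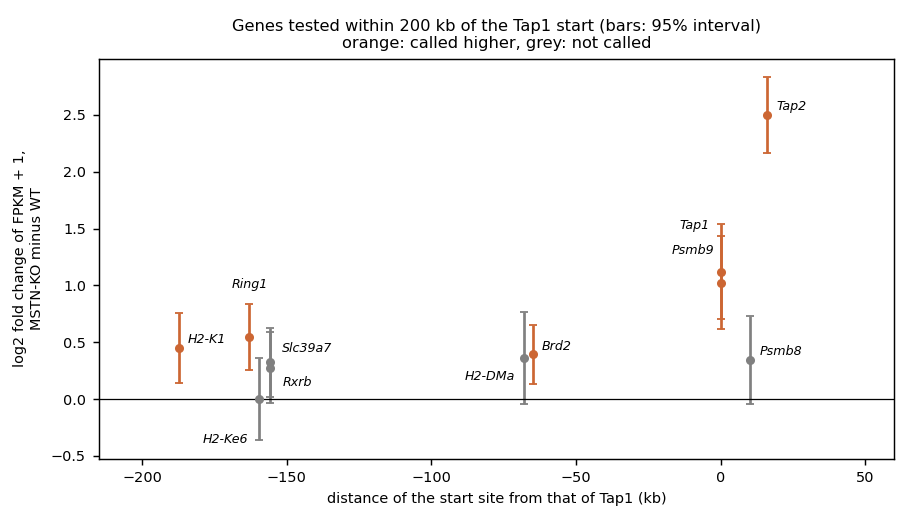
log2FC of FPKM + 1 (MSTN-KO minus WT) with 95% intervals from limma for the 11 genes tested within 200 kb of the *Tap1* start, against the distance of each start site from that of *Tap1* in kb. *Tap2* at 2.50 stands above *Tap1* at 1.12 and *Psmb9* at 1.02, with *Psmb8* in between by position at 0.34, and the genes to the left lie between -0.0023 and 0.55.

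The receptors were expressed in both groups and none was called. *Ifnar1*, a chain of the type I interferon receptor, was at 18.8, 17.7 and 15.4 FPKM in WT and 17.1, 16.1 and 14.9 FPKM in MSTN-KO (log2FC -0.10, adjusted p = 0.643 by limma, interval -0.39 to 0.19). *Ifngr2*, the signalling chain of the interferon gamma receptor, was at 16.04, 16.6 and 13.05 FPKM in WT and 14.6, 15.6 and 16.5 FPKM in MSTN-KO (log2FC 0.04, adjusted p = 0.873 by limma, interval -0.26 to 0.34). Both sets of values overlapped between the groups. *Ifngr1*, the ligand-binding chain of the same receptor, was at 13.7, 13.9 and 14.3 FPKM in WT and 15.97, 19.4 and 18.5 FPKM in MSTN-KO. Its groups did not overlap, but it missed the threshold (log2FC 0.34, adjusted p = 0.0941 by limma). In the JAK and STAT part of the pathway list, 9 genes were tested, among them the kinases *Jak1*, *Jak2* and *Tyk2* with log2FC values of 0.01, -0.16 and 0.22, and only *Socs3*, a feedback inhibitor of JAK signalling, was called. *Socs3* was at 13.1, 11.7 and 12.8 FPKM in WT and 21.7, 19.5 and 19.8 FPKM in MSTN-KO (log2FC 0.66, adjusted p = 0.00419 by limma).

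Among the transcription factors, *Irf2* was the call. IRF2 binds the same promoter elements as IRF1 and is known both to repress type I interferon responses and to activate some genes. It was at 6.01, 6.04 and 6.69 FPKM in WT and 9.67, 8.17 and 10.2 FPKM in MSTN-KO, with no overlap between the groups (log2FC 0.51 with an SE of 0.14, adjusted p = 0.028 by limma). The call was lost without WT replicate 1 or 2 or MSTN-KO replicate 1 or 3 (adjusted p 0.0628 to 0.12) and after scaling to 1000000 (0.26, adjusted p = 0.18). *Gm45479* (1723 bases), *Gm31172* (433 bases) and *Gm45481* (877 bases) overlap the span of *Irf2* on the opposite strand. *Irf1*, an activator induced by interferon gamma, was at 13.7, 15.2 and 20.2 FPKM in WT and 18.4, 19.6 and 21.6 FPKM in MSTN-KO. WT replicate 3 lay within the MSTN-KO range there, and the difference was not called (log2FC 0.28, adjusted p = 0.235 by limma).
*Irf3*, which is activated by virus sensors without new synthesis, was at 30.6, 27.2 and 24.7 FPKM in WT and 32.6, 29.9 and 34.2 FPKM in MSTN-KO (log2FC 0.22, adjusted p = 0.253 by limma). *Stat2*, a factor of the type I response that works with IRF9, was at 4.13, 3.92 and 4.52 FPKM in WT and 3.62, 3.45 and 3.41 FPKM in MSTN-KO, lower in every library but not called (log2FC -0.21, adjusted p = 0.35 by limma). *Irf7*, which interferon itself induces and which amplifies the response, was at 0.547, 0.3102 and 0.848 FPKM in WT and 0.322, 0.2302 and 0.633 FPKM in MSTN-KO. It was too low for the test, and the groups overlapped.

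The 19 antiviral effectors split by level. *Ifitm2* and *Ifitm3*, which encode membrane proteins that hinder the entry of viruses, were with *B2m* the most abundant members. *Ifitm3* had 583 to 603 FPKM in WT and 593 to 685 FPKM in MSTN-KO and was not called (log2FC 0.10, adjusted p = 0.592 by limma). *Ifitm2* was at 481, 432 and 401 FPKM in WT and 724, 556 and 704 FPKM in MSTN-KO. Its groups did not overlap (log2FC 0.59 with an SE of 0.14, adjusted p = 0.0126 by limma). In MSTN-KO replicates 1 and 3 *Ifitm2* exceeded *Ifitm3*, which it did in no WT library. *Ifitm1* was lower, at 38.4 to 48.1 FPKM in WT and 37.3 to 60.05 FPKM in MSTN-KO, and was not called. The call of *Ifitm2* was lost when values were adjusted for length and GC (0.345, adjusted p = 0.054), after scaling to 1000000 (0.30, adjusted p = 0.0701) and without WT replicate 2, WT replicate 3 or MSTN-KO replicate 1 (0.0532 to 0.0673). The Ifitm genes are close paralogs, which makes the division of reads among the 3 uncertain, and the annotated gene *Gm45717* overlaps *Ifitm2* by 1101 bases on the same strand.

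*Xaf1*, which encodes a pro-apoptotic partner of the caspase inhibitor XIAP and is known as an interferon-stimulated gene, was the only member called lower. It was at 3.93, 3.7002 and 3.39 FPKM in WT and 1.99, 0.716 and 1.33 FPKM in MSTN-KO. The groups did not overlap (log2FC -1.03 with an SE of 0.20, adjusted p = 0.00392 by limma). The call was kept under all 16 alternatives, with values from -1.48 to -0.82.

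Of the other effectors tested, *Samhd1*, *Adar* and *Ifi35* did not overlap between the groups, and none of these was called. *Samhd1*, which depletes deoxynucleotides, was at 22.03, 20.3 and 21.2 FPKM in WT and 33.7, 28.96 and 24.6 FPKM in MSTN-KO (log2FC 0.43, adjusted p = 0.0512 by limma). *Ifi35* was at 35.95, 29.7 and 28.3 FPKM in WT and 39.7, 38.04 and 44.5 FPKM in MSTN-KO (log2FC 0.37, adjusted p = 0.0715 by limma). *Adar*, which edits adenosine in double-stranded RNA, was at 6.87, 6.21 and 7.0005 FPKM in WT and 8.14, 7.29 and 8.33 FPKM in MSTN-KO (log2FC 0.21, adjusted p = 0.312 by limma). *Samhd1* was called after the length and GC correction (0.458, adjusted p = 0.0157). *Ifi27*, a mitochondrial protein, was at 86.7, 77.8 and 61.9 FPKM in WT and 111, 86.2 and 115 FPKM in MSTN-KO, with MSTN-KO replicate 2 inside the WT range (log2FC 0.46, adjusted p = 0.0566 by limma).
*Bst2* (tetherin, which holds budding virus at the membrane), *Isg20* (an exonuclease), *Eif2ak2* (the kinase PKR) and *Ifit2* had log2FC values between -0.29 and -0.04, and none was called. *Bst2* was expressed at 15.8 to 20.7 FPKM over the 6 libraries. It was called lower after the length and GC correction (-0.325, adjusted p = 0.0389) and after scaling to 1000000 (-0.425, adjusted p = 0.0263, against a median of -0.26 for all genes).

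*Isg15*, a ubiquitin-like modifier that interferon induces, was at 1.39, 2.16 and 2.24 FPKM in WT and 3.36, 2.65 and 2.59 FPKM in MSTN-KO. Its groups did not overlap, and it missed the threshold (log2FC 0.41, adjusted p = 0.127 by limma). Its RefSeq promoter held 3 overlapping matches to the ISRE core between positions -78 and -57. *Usp18*, the protease that removes ISG15, was at 0.116, 0.131 and 0.02701 FPKM in WT and 0.0344, 0.0287 and 0 FPKM in MSTN-KO. *Trim25*, *Parp9* and *Dtx3l*, the last a ubiquitin ligase that works with PARP9, had log2FC values of 0.11, 0.15 and 0.13 and were not called. *Parp9* and *Dtx3l* also overlap by 682 bases on opposite strands.

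Several genes known as markers of an interferon response were near 0 in both groups. In all, 17 of the 45 members stayed under 1 FPKM in every library, with 0.848 FPKM (*Irf7* in WT replicate 3) as the highest value, and 7 of them never reached 0.2 FPKM. *Ifit1*, which binds foreign RNA, was listed at 0, 0 and 0.0305 FPKM in WT and 0.0205, 0 and 0 FPKM in MSTN-KO, and its promoter shown above holds the ISRE core at 2 places. *Oas1a*, a synthase of the messenger that activates RNase L, reached at most 0.127 FPKM, and *Oasl2* 0.347 FPKM. *Cxcl9*, a chemokine induced by interferon gamma, was above 0 in 1 library of each group, at most 0.0189 FPKM. The guanylate binding proteins *Gbp3* and *Gbp7*, GTPases that attack intracellular microbes, ranged from 0 to 0.799 FPKM.
The sensors were low too. *Ddx58* (RIG-I) was at 1.43, 1.24 and 1.19 FPKM in WT and 1.82, 2.02 and 1.02 FPKM in MSTN-KO (log2FC 0.18, adjusted p = 0.541 by limma), while *Ifih1* (MDA5), *Dhx58* and *Zbp1* stayed under 1 FPKM in every library. *Sp100* of the nuclear bodies reached 0.4104 FPKM in MSTN-KO replicate 2 and 0.0909 FPKM at most elsewhere.

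Of these 17 low members, 12 overlapped between the groups, 3 lay above WT in every MSTN-KO library and 2 below. Among the 10837 genes tested, which leave out these 17, 19.3% lay above and 18.1% below. The same share over all low genes was not worked out. *Gbp2* was at 0.212, 0.149 and 0.138 FPKM in WT and 0.784, 0.296 and 0.229 FPKM in MSTN-KO. *Ifit3* was at 0.0541, 0.0708 and 0.0487 FPKM in WT and 0.127, 0.236 and 0.136 FPKM in MSTN-KO. *Ifi44* was at 0, 0.0171 and 0 FPKM in WT and 0.0722, 0.05998 and 0.0198 FPKM in MSTN-KO. These 3 genes were higher in every MSTN-KO library. *Parp14* was at 0.1096, 0.103 and 0.213 FPKM in WT and 0.0846, 0.0869 and 0.0475 FPKM in MSTN-KO, and *Rsad2* at 0.0733, 0.0118 and 0.0613 FPKM in WT and listed at 0 in all MSTN-KO libraries. These 2 genes were lower in every MSTN-KO library. Levels this low rest on few fragments, and none of the 17 was called in the fit without the filter.

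The wider pathway list, also chosen with earlier results known, had 83 of 121 genes in the tables and 54 tested. Of the 54, 8 were upregulated (14.8%, against 8.78% of all genes tested) and 2 downregulated (3.7%, against 8.96%). The 54 include the 17 other class I genes described above, 5 of them upregulated (29.4%). In the other parts, 2 of 17 interferon-stimulated genes (11.8%) and 1 of 9 signal transduction genes (11.1%) were upregulated. None was among the 9 sensing and adaptor genes or the 2 interferon-gamma genes. The 2 downregulated genes were sensing and adaptor genes (22.2% of the 9). *Parp10*, an ADP-ribosyltransferase, was at 3.84, 2.91 and 2.76 FPKM in WT and 7.82, 9.77 and 8.73 FPKM in MSTN-KO (log2FC 1.23, adjusted p = 0.000203 by limma). *Lgals3bp*, a secreted glycoprotein, was at 4.07 to 4.45 FPKM in WT and 7.14 to 8.24 FPKM in MSTN-KO (log2FC 0.75, adjusted p = 0.00335 by limma). Both genes rose. *Tmem173*, which encodes the DNA-sensing adaptor STING, fell from 9.26, 8.01 and 7.46 FPKM to 2.86, 3.87 and 3.02 FPKM (log2FC -1.12, adjusted p = 0.000385 by limma). *Irf5* fell from 1.12 to 1.49 FPKM in WT to 0.444 to 0.672 FPKM in MSTN-KO (log2FC -0.57, adjusted p = 0.0326 by limma), passed the filter only through WT and lost its call when any library was left out.
Of 13 interferon genes only *Ifng* was in the tables, listed at 0 in all WT libraries and at 0.332, 0.05503 and 0.05601 FPKM in MSTN-KO. Such levels rest on few fragments. *Ifng* was too low for the test and was not called in the fit without the filter (adjusted p = 0.21 by limma). *Mx1*, *Mx2*, *Oas3*, *Cmpk2* and *Ifit3b*, further classical interferon-stimulated genes, were at most 0.0791 FPKM in any library. *Nlrc5*, the transactivator of class I genes, was at 0.385, 0.807 and 0.363 FPKM in WT and 0.342, 0.784 and 0.647 FPKM in MSTN-KO, overlapping between the groups.

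The state of the cultures differed beside these results. All 7 differentiated muscle markers tested were called lower in MSTN-KO (against 8.96% of all genes tested). Their summed level was 868, 876 and 244.7 FPKM in WT and 32.03 to 57.7 FPKM in MSTN-KO. *Ckm* and *Myh3* passed the filter only through WT, which favours a difference in that direction. Without the filter all 7 were called lower as well (against 6.23% of all genes). The summed level of the 4 myoblast markers was 722 to 1004 FPKM in WT and 438 to 531 FPKM in MSTN-KO, and *Myod1* (log2FC -0.58, adjusted p = 0.00986 by limma) and *Des* (log2FC -0.96, adjusted p = 0.000995 by limma) were called lower. That of the 4 fibroblast markers was 183 to 256 FPKM in WT and 321 to 386 FPKM in MSTN-KO, most of it *Col3a1*, which was called higher (log2FC 0.68, adjusted p = 0.00765 by limma), while *Dcn* was called lower (log2FC -0.73, adjusted p = 0.0454 by limma). The third WT library was the WT library nearest to MSTN-KO in the differentiated muscle markers. Among the 7 called members it was the WT library nearest to MSTN-KO for 4 (*Irf2*, *B2m*, *H2-K1* and *Xaf1*) and the farthest for 3 (*Tap1*, *Tap2* and *Ifitm2*). Without it the calls of *Tap1*, *Tap2*, *Irf2* and *Xaf1* were kept, and those of *B2m*, *H2-K1* and *Ifitm2* were lost. The part of these marker genes' shifts in the values of the members was not tested. Nothing in the labels says that replicates came from separate cultures, so the p-values measure the spread between these libraries, which may be technical.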

How the data were processed

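RNA-seq of C2C12 cells (WT and MSTN-KO, 3 libraries each) was analysed, grouped by the titles in the sample labels. The authors deposited FPKM values per gene, 1 library per file and replicates not pooled. The processing notes of the submitters name Bowtie 0.12.2 and the build mm8 without a role, and the annotation and any gene filter are not given in the sources used here. FPKM divides by gene length and by the fragments of the library, so abundant genes lower the values of others. Depth per library is unknown beyond the relative steps of low values, and no counting error could be given.

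Symbols, positions and lengths came from GENCODE M21 (GRCm38), matched by Ensembl identifier for 14454 of 14548 genes, and *Cgas* was matched through an older symbol. The files hold no coordinates. The members and lists were chosen with earlier results of these data known. Values per library are given for members that were called, that did not overlap or that belong to the receptors, factors and class I genes, and up to 10 called genes of the wider list were named in each direction.

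Genes that reached 1 FPKM in 1 or more libraries were fitted on the log2(FPKM + 1) scale by limma 3.58.1 (R 4.3.3), with a group term, a trended eBayes step, two-sided tests and Benjamini-Hochberg adjustment over every gene fitted, called under 0.05. The fit was tested on simulated data. The results were computed again with pseudocount 0.1, unfiltered, filtered on the mean, untrended, quantile normalized, scaled by percentile 75 or to a total of 1000000, corrected for length and GC with a smooth (mgcv 1.9.3), with a replicate block, and without each library. Replicate numbers were not used as pairs. Promoters came from RefSeq (GRCm38.p6). Python 3.11.15 with pandas 2.3.3, numpy 2.4.6, matplotlib 3.10.9 and scipy 1.17.1 did the other steps.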

Additional observations from a re-analysis of the deposited data

How the results depend on the processing

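The calls of *Tap1*, *Tap2* and *Xaf1* were kept under all 16 alternatives, and all 7 called members kept their direction. Of the 21 members not called, 4 were called under some alternative (*Bst2*, *Ifi27*, *Ifi35* and *Samhd1*). Against 6 upregulated members, there were 2 (*Tap1* and *Tap2*) after scaling to 1000000, and leaving out single libraries gave 2 (without WT replicate 2) to 5, with 3 without WT replicate 3 or MSTN-KO replicate 1. Against 1 downregulated member there were 2 after that scaling and 2 after the length and GC correction, with *Bst2* added. Against 2 downregulated genes of the wider list there were 9 after that scaling, and 1 with the filter on the mean, with quantile normalization, with the replicate block and without any library but MSTN-KO replicate 2 (range 1 to 3). The median log2 fold change of the members went from 0.195 to 0.0103 after scaling to 1000000, while that of all genes went to -0.26.

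Deviations from the group means correlated at -0.02, -0.13 and -0.14 between libraries of the same number, and 0 of 6 libraries correlated best with their own number. With the replicate block 6 members were upregulated and 1 downregulated, as without it, but *B2m* lost its call (adjusted p = 0.0563) and *Ifi27* gained one (0.0395). FPKM without counts limits all values under 1 FPKM.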
